A study of Sus scrofa with 11 samples.

Results

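Cytosolic ribosomal proteins were taken as the probe sets of a whole-transcript array whose only gene symbol starts with RPL or RPS followed by a digit, or is RPSA, RPLP0, RPLP1 or RPLP2, with the RPS6K kinases left out. Of 27558 probe sets, 54 met this rule, and they carried 43 of the 12217 gene symbols named alone on a probe set. The tissue was left ventricle of intact male Yorkshire pigs, from the ischemic zone of hearts whose left circumflex coronary artery carried an ameroid constrictor, which narrows a vessel slowly. The groups were HFD+EV (3 arrays, high fat diet and extracellular vesicles injected into the heart muscle), HFD (2 arrays, high fat diet and vehicle), ND+EV (3 arrays, normal diet and vesicles) and ND (3 arrays, normal diet and vehicle). Diets lasted 12 weeks and tissue was taken 5 weeks after the injection. All 4 groups thus share sex, breed, the constrictor and an injection, and none of the 4 was without a constrictor. No source used here gives the origin of the vesicles, the age of the pigs or the pig behind each array.

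Ribosomal proteins form the small subunit of the ribosome, which reads the mRNA, and the large subunit, which joins the amino acids. Their mRNAs are abundant in all tissues, and many begin with a run of pyrimidines, the TOP motif, through which the kinase mTOR controls how strongly they are translated. In heart muscle the output of ribosomes is known to follow growth and load. Protein output and ribosome number were not measured here, and in whole tissue fewer cells of a type and less RNA per cell cannot be told apart.

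The symbols fell into 21 large subunit and 15 small subunit genes, 2 proteins of the P stalk, 4 paralogs or near-namesakes and RPS19BP1, which binds RPS19 and is no ribosomal protein. The P stalk is the arm of the large subunit that calls in elongation factors. The paralogs were RPL26L1, RPL36AL, RPS27L and RPL7L1. Of the subunit genes in a general list, 23 of 47 for the large and 16 of 33 for the small subunit had a probe set with a single symbol, and the small subunit's FAU was named although the rule does not take it. RPSA, RPLP1 and the muscle paralog RPL3L were not among the members. Values are normalized log2 signals, and 40 of the 43 genes, RPS19BP1 among them, passed the filter on low signal, a mean of at least 3.63 over the 11 arrays. The probe sets named for RPS6 (mean 2.74), RPL27A (3.05) and RPL22 (3.39) did not. Where a gene had several probe sets, the one with the highest mean signal stood for it. Many ribosomal protein genes have near-identical processed copies in mammalian genomes, so a probe set may also take up signal from such copies.

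The ventricular markers MYH7, MYL2, MYL3, ACTN2, MYBPC3 and RYR2 had mean log2 signals between 11.03 and 11.43 on the 11 arrays, so the labelled tissue had its markers, and the other 2 of the 8 markers, TNNI3 and TNNT2, had no probe set with a single symbol. ND replicate 1 and ND replicate 3 stood apart from the rest. Their mean correlations with the other arrays were 0.946 and 0.952, and the other 9 arrays lay between 0.965 and 0.972. The SD of log2 signal over all probe sets was 1.45 and 1.47 on these 2 arrays and 1.5 to 1.62 on the others. The titles call the arrays of a group biological replicates. The p-values and SE measure the spread between arrays within groups, pooled over all 4 groups. The ND arrays thus enter the spread also in comparisons without ND. For RPL24, as an example, the SD was 0.19 in HFD+EV, 0.16 in HFD and 1.07 in ND. Its SE for HFD+EV against HFD was 0.47.

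A few arrays stood out across the ribosomal protein genes. ND replicate 1 had the lowest signal of all 11 arrays for 33 of the 40 genes, while over all 20668 probe sets tested it was the lowest for 16.2%. Set against the median of the 9 arrays other than itself and HFD+EV replicate 1, it was below for 39 of 40 genes, with a median difference of -0.81. In the 5167 probe sets with the highest mean signal, called the bright set here, the same array was below for 64.2% with a median of -0.20. HFD+EV replicate 1 lay below that median for 38 of 40 genes, by a median of -0.41, against -0.053 for the bright set. It was the lowest of its own group for 36 genes, but other groups had such an array too. These were ND replicate 1 (37), ND+EV replicate 3 (35) and HFD replicate 2 (33). ND+EV replicate 2 had the highest signal for 25 of 40 genes and for 6.47% of all probe sets. The mean deviation of the 40 genes from their own means was -0.29, 0.21 and 0.041 on HFD+EV replicates 1, 2 and 3, and 0.23 and 0.037 on the 2 HFD arrays. It was 0.20, 0.43 and 0.010 on the ND+EV arrays, against -0.82, 0.075 and -0.12 on the ND arrays, in order of replicate number. In this score every group compared overlapped with its counterpart.

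**Figure D1:**
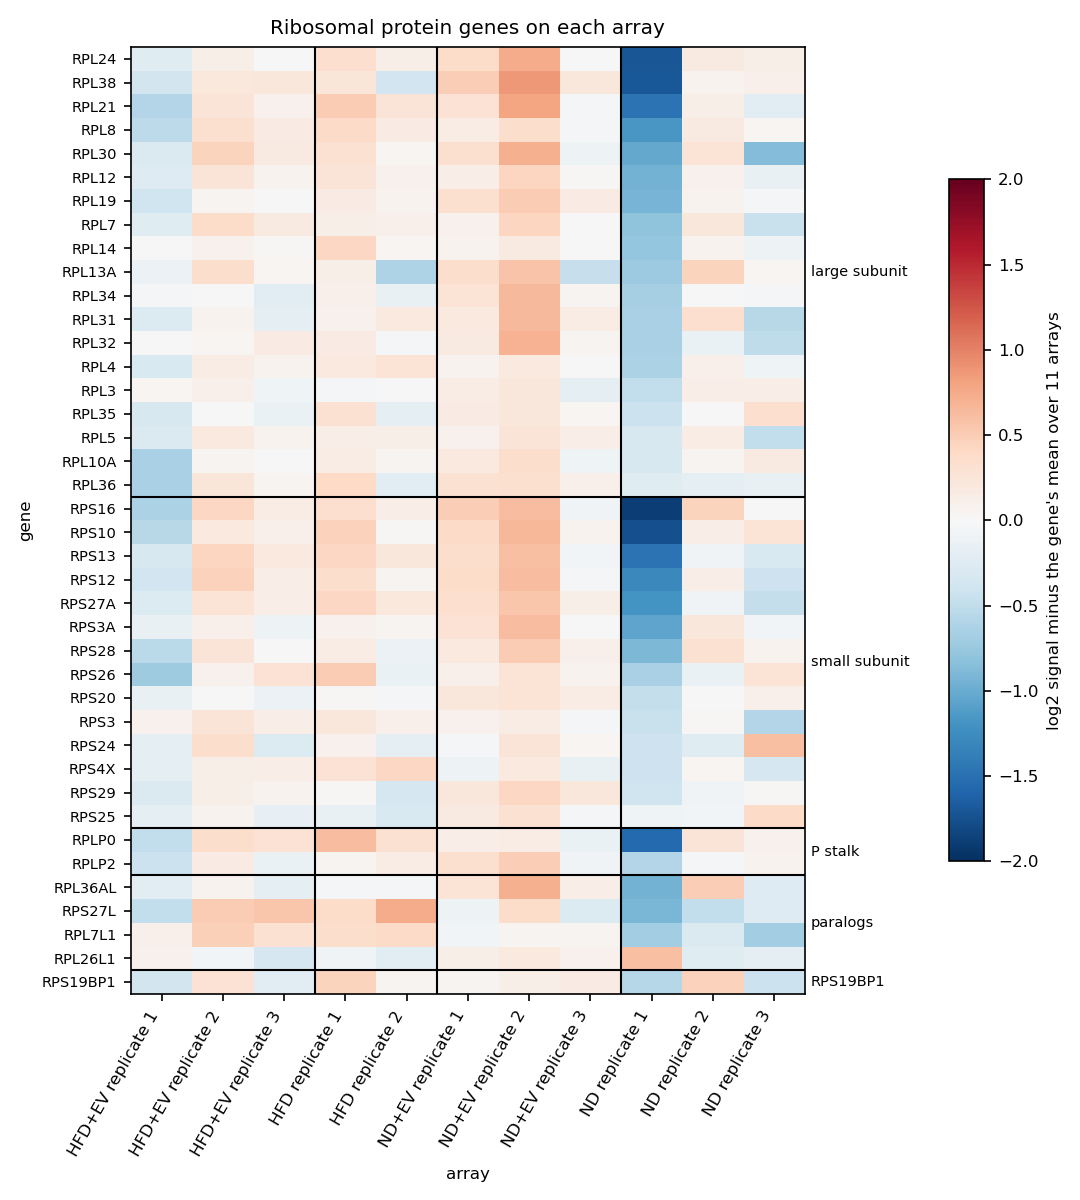
Each row is 1 of the 40 genes tested, RPS19BP1 included, and each column an array, ordered HFD+EV, HFD, ND+EV, ND. Colour gives the log2 signal minus the gene's mean over 11 arrays. ND replicate 1 is the lowest array for 33 of 40 genes, and RPL26L1 is its one gene clearly above the gene mean.

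The depth of the dip on ND replicate 1 differed widely between members. It was deepest for RPS16 (-2.22), for RPS10, which lies where the mRNA enters the small subunit (-1.95), for RPL38 (-1.92), for RPL24, which bridges the subunits (-1.83), and for RPLP0, the base of the P stalk (-1.81). RPS25, a small subunit protein, differed by -0.061. RPL26L1, a near copy of RPL26, went the other way, with 5.42 on ND replicate 1 and between 4.48 and 5.02 on the other 10 arrays. Across the 40 genes the dip and the mean signal had a Pearson correlation of -0.29, given as a description, since all values come from 1 array. Markers of several other cell types had their lowest mean log2 signal on that array too. These were fibroblasts (5 of 6 markers tested, 8.20 there and 8.79 to 9.94 on the others), atrial cells (4 of 4, 4.99 and 5.44 to 7.23), smooth muscle and pericytes (5 of 6, 5.90 and 6.10 to 7.09) and macrophages (4 of 6, 4.83 and 4.98 to 5.39). Single markers did not all follow these means. LUM, DCN, COL1A1, COL3A1, RGS5, TAGLN, ACTA2, MRC1, CSF1R, MYL7 and SLN were lowest on ND replicate 1. COL1A2, CNN1, AIF1 and NPPA were not, and PDGFRB was highest there (5.75, and 5.14 to 5.71 on the other 10 arrays). The means of ventricular, endothelial and lymphocyte markers were not lowest on that array. The part of tissue makeup and of signal spread in the dip was not tested.

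The first comparison asked what vesicles did under the high fat diet. With limma at an adjusted p under 0.05, none of the 40 genes passed between HFD+EV and HFD (0% of all probe sets), and 0 of 40 had an unadjusted p under 0.05 in either direction (background 2.72% higher and 2.82% lower). Of the 40 genes tested, 33 were lower (background 50.4%) and 7 higher (49.5%), with a median log2 fold change of -0.17, while the median over all probe sets was -0.0023. Quantile normalization gave 29 lower and 11 higher (median -0.096), and cyclic loess 28 and 12 (-0.10). Without HFD+EV replicate 1 the counts were 23 lower and 17 higher and the median was -0.021, and without HFD replicate 1 the median was -0.067. Of the cell type markers, all 4 atrial genes (median log2 fold change -1.41) and all 5 fibroblast genes tested (-0.20) were lower too, as were 4 of 5 of smooth muscle and pericytes (-0.34). HFD replicate 2 stood apart in the atrial genes, with 6.73 for SLN (3.18 to 3.94 on the other 10 arrays) and 9.27 for NPPA (4.61 to 7.40). The part of these cells in the ribosomal protein values was not tested.

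On the lower side RPL21 had the largest difference. RPL21, a large subunit protein, had log2 signals of 6.78, 7.63 and 7.46 in HFD+EV, against 7.88 and 7.64 in HFD. All HFD+EV arrays were lower than both HFD arrays, the upper 2 by little (log2 fold change -0.47 ± 0.43, SE; limma adjusted p = 0.950; -0.22 without HFD+EV replicate 1). RPLP0 had 8.09, 8.93 and 8.86 in HFD+EV, against 9.19 and 8.88 in HFD, so the groups overlapped (-0.41 ± 0.46; adjusted p = 0.972; -0.14 without HFD+EV replicate 1). The groups did not overlap, with HFD+EV lower, for 5 of 40 genes (background 11%). On the higher side RPL13A (0.34 ± 0.38), RPS25 (0.13 ± 0.17) and RPS29 (0.12 ± 0.18) led, and none passed (limma adjusted p from 0.971 to 0.985). RPL13A was -0.026 and RPS29 -0.055 without HFD replicate 2, and RPS25 was 0.049 without HFD+EV replicate 2. The mean log2 signal of RPS29 was 3.76, close to the filter of 3.63.

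The second comparison asked the same under the normal diet. Again no member passed in ND+EV against ND (limma; 0% of all probe sets), and 14 of 40 genes had an unadjusted p under 0.05, all on the higher side (background 4.97% higher and 3.54% lower). All 40 genes tested had a log2 fold change above 0 (background 49.2% above and 50.8% below), and their median was 0.46. With cyclic loess 38 of 40 were above 0. In the bright set 3172 of 5167 were above 0, with a median of 0.10. The large subunit (19 genes, median 0.52), the small subunit (14 genes, 0.44), the P stalk (RPLP0 0.45, RPLP2 0.43) and the paralogs (4 genes, 0.57) had medians close to each other. Without ND replicate 1 the median was 0.23 with 34 of 40 genes above 0, and without both ND replicates 1 and 3 it was 0.16 with 28 above 0. Fibroblast markers were higher in ND+EV for 5 of 5 genes (median 0.24) and macrophage markers for 3 of 4 (0.27), with MRC1 at 0.59 and AIF1 at 0.50. Atrial markers split into 2 higher and 2 lower (0.029), with MYL7, a myosin light chain, at 1.64 and NPPA at -0.77. The limma adjusted p was 0.548 to 0.574 for MRC1, AIF1 and MYL7, and 0.714 for NPPA. Smooth muscle and pericyte markers were higher for 1 of 5 (-0.29). Their part in the ribosomal protein values was not tested.

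RPL38, a large subunit protein needed in mice for the translation of certain Hox mRNAs, had the largest fold change of the genes tested. Its log2 signals were 9.89, 10.27 and 9.64 in ND+EV, against 7.72, 9.48 and 9.51 in ND. The groups did not overlap, yet the margin between the lowest ND+EV array and the upper ND arrays was small beside the gap to ND replicate 1 (log2 fold change 1.03 ± 0.42, SE; limma adjusted p = 0.574; 0.44 without ND replicate 1). RPS13, a small subunit protein, had 9.41, 9.66 and 9.0 in ND+EV, against 7.58, 8.98 and 8.74 in ND, without overlap (0.92 ± 0.34; adjusted p = 0.549; 0.49 without ND replicate 1). RPS27A, which is made as a fusion with ubiquitin, had 8.08, 8.30 and 7.87 in ND+EV, against 6.55, 7.68 and 7.28 in ND. Here too every ND+EV array was above every ND array (0.92 ± 0.26; adjusted p = 0.539), and 0.61 remained without ND replicate 1. In all, the groups did not overlap, with ND+EV higher, for 10 of 40 genes (background 6.32%) and for 0 with ND+EV lower (5.31%). RPL19, RPL32, RPL34, RPL7L1, RPS20 and RPS29 were among the 10. The last 2 were dim, with mean log2 signals of 3.78 and 3.76, close to the filter of 3.63.

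Other members showed no such separation. RPLP0 had 8.70, 8.72 and 8.44 in ND+EV, against 7.02, 8.83 and 8.65 in ND. Leaving out ND replicate 1 turned its log2 fold change of 0.45 ± 0.41 (SE) to -0.12. The smaller stalk protein RPLP2 had 5.07, 5.23 and 4.67 in ND+EV, against 4.15, 4.72 and 4.81 in ND (0.43 ± 0.22; limma adjusted p = 0.623; 0.22 without ND replicate 1). RPL3, which lies near the catalytic centre, was at 0.14 ± 0.18, and at -0.063 without that array. RPS25 (0.069 ± 0.15) and RPL26L1 (0.071 ± 0.21) were nearest 0, but leaving out ND replicate 1 put RPL26L1 at 0.34, and leaving out ND replicate 2 put it at -0.081.

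**Figure D2:**
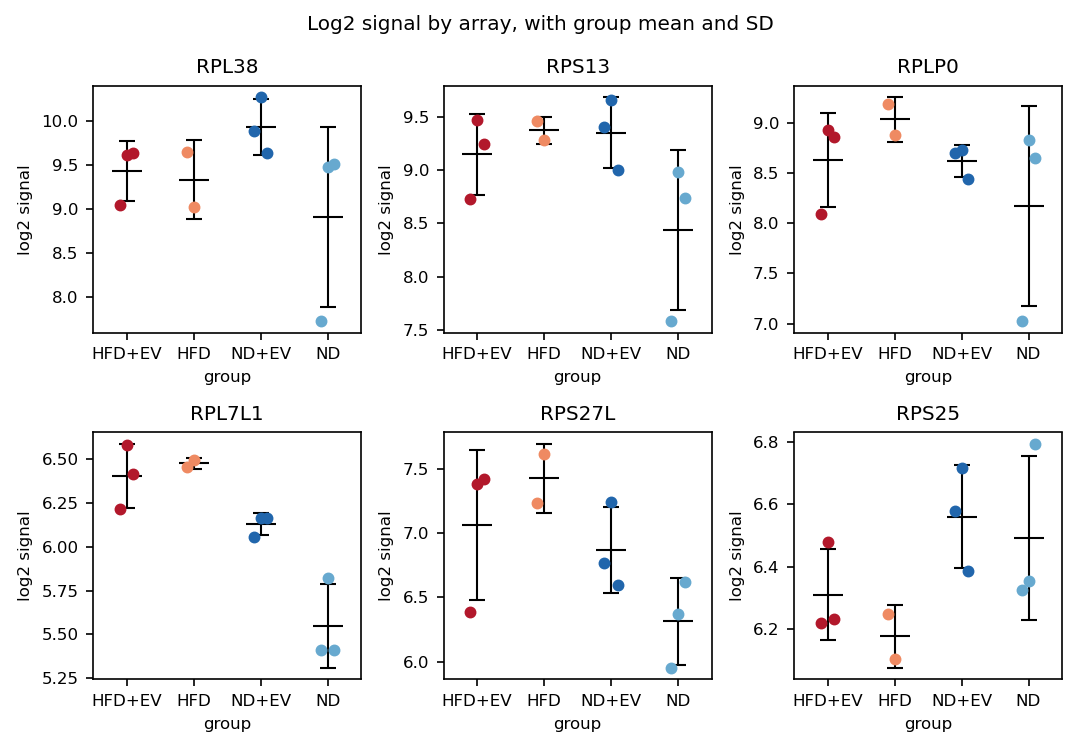
Log2 signal of 6 members on each array by group (points), with the group mean and SD (bars), for 3 HFD+EV, 2 HFD, 3 ND+EV and 3 ND arrays. ND replicate 1 is far below the other ND arrays for RPL38, RPS13 and RPLP0, whereas for RPL7L1 all 3 ND arrays lie below the other 8 and RPS25 does not dip.

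An interaction term (the vesicle effect under the high fat diet minus that under the normal diet) asked if the response depended on diet. No member passed (limma; 0% of all probe sets). An unadjusted p under 0.05 was found for 8 of 40 genes, all on the lower side (background 4.55% lower and 3.87% higher). The median difference was -0.65, with 38 of 40 genes below 0 (background 49.8%) and 2 above (50.2%). The 8 became 4 with quantile normalization and with cyclic loess. RPL21 differed by -1.35 ± 0.57 (SE; limma adjusted p = 0.582; -0.87 without ND replicate 1) and RPS27A by -1.19 ± 0.39 (adjusted p = 0.572; -0.88 without it). RPL13A (0.11 ± 0.51) and RPS25 (0.064 ± 0.23) were the 2 above 0, with limma adjusted p of 0.961 and 0.952. The median was -0.38 without ND replicate 1, -0.52 without HFD+EV replicate 1, and -0.28 without both.

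**Figure D3:**
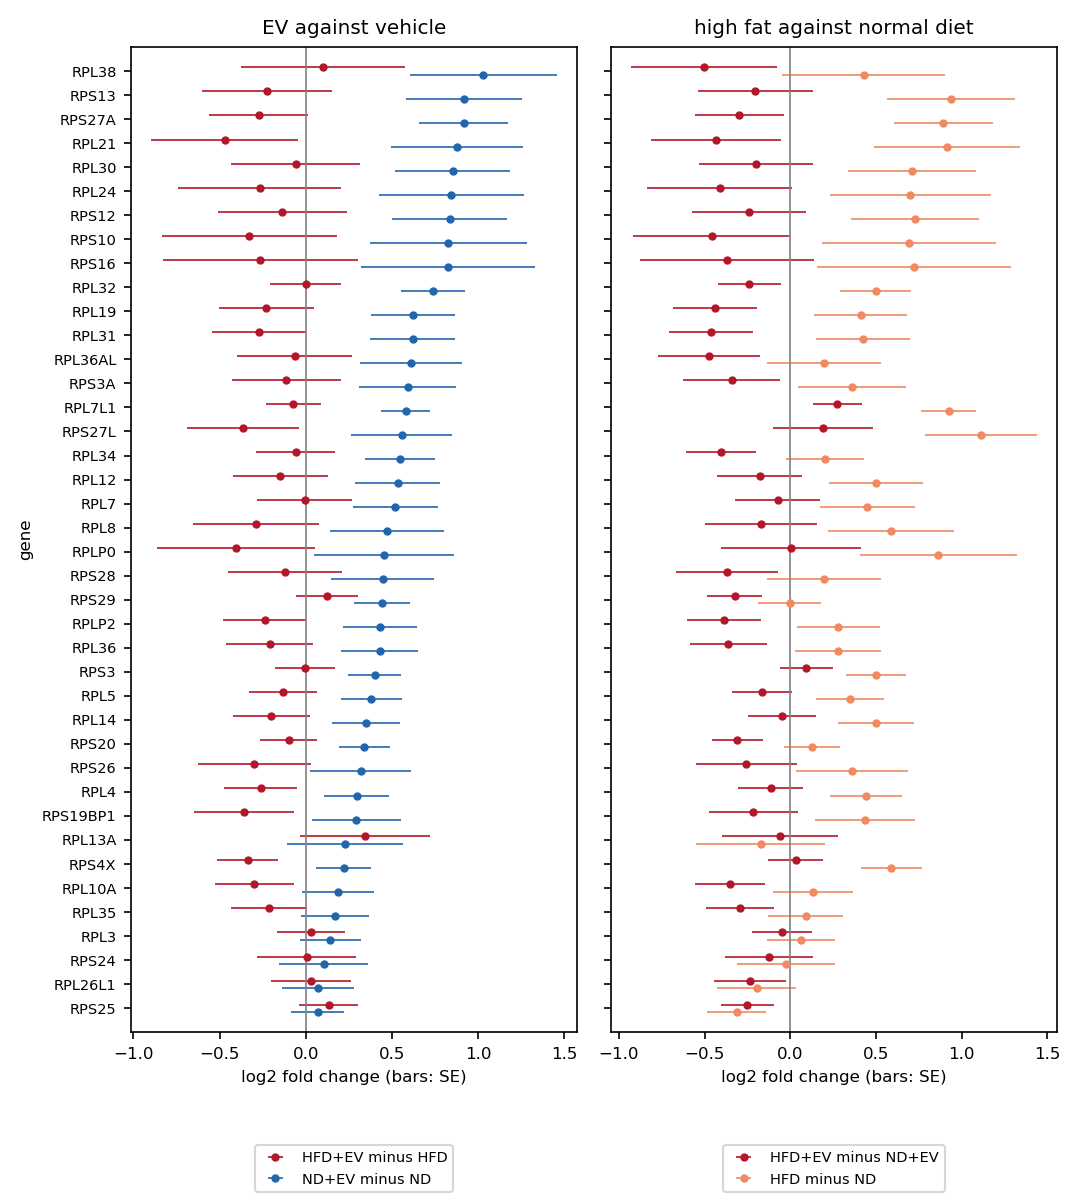
Log2 fold change with SE for the 40 genes, ordered by ND+EV minus ND; left, the vesicle comparisons in each diet, and right, the diet comparisons in each injection. All 40 genes lie above 0 in ND+EV minus ND (38 with cyclic loess) and 35 in HFD minus ND (25 with cyclic loess), which share the ND arrays, while 33 and 35 lie below 0 in HFD+EV minus HFD and HFD+EV minus ND+EV, which share the HFD+EV arrays.

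Between the diets without vesicles, 1 member passed, and it was a paralog. No gene of the large subunit, the small subunit or the P stalk passed in any comparison of the fit described above. RPL7L1, known in human cells for its part in the assembly of the large subunit, rose in HFD. Its log2 signal was 6.45 and 6.50 in HFD, against 5.41, 5.82 and 5.41 in ND. Both HFD arrays lay above all 3 ND arrays, and the lowest of all 11 arrays were ND replicates 1 and 3. The means were 6.47 ± 0.031 in HFD (SD, n = 2) and 5.55 ± 0.24 in ND (SD, n = 3), a fold of 1.90 with a log2 fold change of 0.93 ± 0.16 (SE; limma adjusted p = 0.0471). Both probe sets named for RPL7L1 held the same values, so they are 1 measurement. Of all probe sets, 0.735% passed and 0.513% passed on the higher side. The call was lost under most alternatives, among them no filter on low signal (adjusted p = 0.0533), quantile normalization (0.0681) and a fit of these 2 groups alone (0.208). It did not hold without either HFD array (0.129 and 0.263), without ND replicate 1 (0.111) or ND replicate 3 (0.0620), or without any 1 of HFD+EV replicates 2 and 3 and the ND+EV arrays (0.0601 to 0.0785), while the log2 fold change stayed between 0.86 and 1.06 without any 1 array.

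In the groups with vesicles, RPL7L1 had log2 signals of 6.21, 6.58 and 6.41 in HFD+EV, against 6.06, 6.16 and 6.16 in ND+EV, without overlap (log2 fold change 0.27 ± 0.14, SE; limma adjusted p = 0.710). ND+EV in turn lay above ND on all arrays (0.58 ± 0.14; adjusted p = 0.539; 0.51 without ND replicate 1). HFD+EV and HFD did not differ beyond their spread (-0.072 ± 0.16).

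RPS27L, a paralog of RPS27 and known in human cells as a target of p53, had the largest fold change between the diets. It had log2 signals of 7.24 and 7.62 in HFD, against 5.95, 6.37 and 6.62 in ND, without overlap (1.11 ± 0.33, SE; limma adjusted p = 0.0868). With HFD+EV replicate 1 left out of the fit, the fold change was the same and the limma adjusted p was 0.0421. Its values were spread in the other groups, at 6.39, 7.38 and 7.42 in HFD+EV, against 6.77, 7.24 and 6.60 in ND+EV (0.19 ± 0.29; adjusted p = 0.893). RPS13, at 9.47 and 9.28 in HFD, was 0.94 ± 0.38 above ND (adjusted p = 0.164; 0.51 without ND replicate 1). RPLP0 was higher by 0.86 ± 0.46 (adjusted p = 0.273; 0.29 without ND replicate 1), RPLP2 by 0.28 ± 0.24 (0.496; 0.076 without it) and RPL3 by 0.062 ± 0.20 (0.871; -0.14 without it).

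RPS25 ran against most other members. It had 6.25 and 6.11 in HFD, against 6.33, 6.36 and 6.79 in ND, and was lower in both HFD arrays (log2 fold change -0.31 ± 0.17, SE; limma adjusted p = 0.292; -0.16 without ND replicate 3). RPL26L1 was lower by less (-0.20 ± 0.23; adjusted p = 0.630), and at 0.075 without ND replicate 1. In HFD against ND, 35 of the 40 genes were higher (background 47.5%) and 5 lower (52.5%), with a median of 0.43 (all probe sets -0.022, bright set 0.28). Quantile normalization gave 31 higher and 9 lower (median 0.18), and cyclic loess 25 and 15 (0.12). An unadjusted p under 0.05 was found for 8 on the higher side (background 13.6%) and 0 on the lower side (10.4%). The bright set had 1579 of 5167 higher and 386 lower at that limit. For the members these counts were 5 and 1 with quantile normalization and 4 and 1 with cyclic loess. The groups did not overlap for 10 with HFD higher (background 19.4%) and 1 with HFD lower (background 19.7%). In the bright set they did not overlap for 1997 of 5167 with HFD higher and 531 with HFD lower. Without ND replicate 1 the median was 0.14, with 27 higher and 13 lower. Fibroblast markers had mean log2 signals of 9.20 and 9.94 in HFD, against 8.20, 8.79 and 9.36 in ND, and atrial markers 6.04 and 7.23 in HFD, against 4.99, 5.57 and 6.05 in ND. Smooth muscle and pericyte markers were higher in HFD for 4 of 5 (median 0.50), with RGS5 at 1.05 and TAGLN at 0.50, and ventricular ones for 4 of 6 (0.27), with MYH7 at 0.41 (limma adjusted p from 0.120 to 0.150 for these 3). Their part in these values was not tested.

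In hearts injected with vesicles most members were lower under the high fat diet. No gene passed in HFD+EV against ND+EV (limma; 0% of all probe sets), and 0 of 40 had an unadjusted p under 0.05 (background 4.14% higher and 3.23% lower). With quantile normalization 5 had one, and with cyclic loess 7, all lower, and 37 of 40 were lower under both. Of the 40 genes 35 were lower (background 51.2%) and 5 higher (48.8%), with a median of -0.25, and all 19 large subunit genes were among the lower ones. The bright set had a median of 0.089, with 3273 of 5167 above 0. RPL38 had 9.04, 9.61 and 9.64 in HFD+EV, against 9.89, 10.27 and 9.64 in ND+EV (log2 fold change -0.50 ± 0.42, SE; limma adjusted p = 0.811; -0.31 without HFD+EV replicate 1 and -0.33 without ND+EV replicate 2). RPL36AL, a near copy of RPL36A, had 8.91, 9.19 and 8.94 in HFD+EV, against 9.39, 9.82 and 9.25 in ND+EV, without overlap (-0.48 ± 0.30; adjusted p = 0.746; -0.31 without ND+EV replicate 2). Another probe set of RPL36AL, with values of its own, was at -0.46, and there the groups overlapped. The groups did not overlap, with HFD+EV lower, for 7 of 40 genes (background 6.93%) and with HFD+EV higher for RPL7L1 (background 7.58%). RPS27L (0.19) and RPS3, which lines the mRNA entry (0.094 ± 0.15), were also on the higher side. With 1 array left out RPS27L lay between 0.013 (without HFD+EV replicate 3) and 0.53 (without HFD+EV replicate 1), and RPS3 between 0.041 (without ND+EV replicate 3) and 0.13. Without HFD+EV replicate 1 the median was -0.090, with 28 lower and 12 higher.

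**Figure D4:**
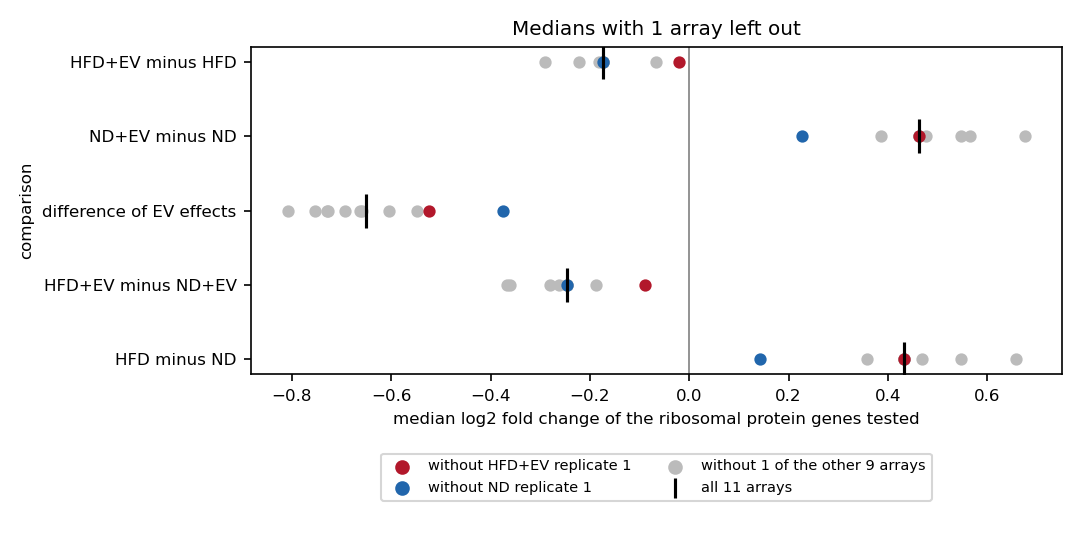
Median log2 fold change of the 40 genes in each comparison with all 11 arrays (vertical mark) and with 1 array left out (points). Leaving out ND replicate 1 takes ND+EV minus ND to 0.23 and HFD minus ND to 0.14, and leaving out HFD+EV replicate 1 takes HFD+EV minus HFD to -0.021 and HFD+EV minus ND+EV to -0.090.

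Probe sets of 1 gene did not always run together. The 2 probe sets of RPL19 gave 0.62 and 0.091 in ND+EV against ND, 0.41 and -0.18 in HFD against ND, and -0.23 and 0.11 for vesicles under the high fat diet, the dimmer one second. The 2 of RPS3 gave 0.094 and -0.29 in HFD+EV against ND+EV. The third probe set of RPL36AL, with values of its own, gave 1.13 in ND+EV against ND, where the shared values of the other two gave 0.61. Those of RPL10A and RPS3A agreed in direction in all 5 comparisons.

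Other genes of translation were read from general lists. Elongation factors carry tRNAs to the ribosome and move it along the mRNA. The list used also held EEF2K, the kinase of EEF2, while EEF2 itself had no probe set with a single symbol. Of the 11 genes in it 7 were tested, and all 7 lay above 0 in ND+EV against ND (median 0.28). In HFD against ND 6 were higher (0.44), and 6 each were lower in HFD+EV than in HFD (-0.20) and than in ND+EV (-0.10). EEF2K was among the lower genes in both of the last comparisons (-0.30 and -0.21). EEF1A1, which delivers the tRNA, was at 0.34 in ND+EV against ND and 0.44 in HFD against ND. Its partner EEF1B2 was at 0.60 in ND+EV against ND and EIF5A at 0.49 in HFD against ND. Initiation factors (25 of 38 tested) had 21 higher in ND+EV than in ND (median 0.28) and 24 higher in HFD than in ND (0.52), where 14 had an unadjusted p under 0.05 on the higher side (13.6% of all probe sets and 1579 of the 5167 in the bright set). In HFD+EV against ND+EV 19 of these 25 were higher (0.13), the side opposite to that of the ribosomal proteins, and 20 were lower than in HFD (-0.15). EIF2S2, a subunit of the factor that brings the first tRNA, was at 0.62 in ND+EV and 0.93 in HFD, each against ND, and EIF2B1 at 0.70 in HFD and EIF3J at 0.54 in ND+EV. None of the genes in these 2 lists passed (limma; the smallest adjusted p was 0.0523, for EIF2B1 in HFD against ND).

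Ribosome biogenesis genes (36 of 50 tested) had 20 higher and 16 lower in ND+EV against ND (median 0.10) and 25 higher in HFD against ND (0.13). BRIX1, an assembly factor of the large subunit, was at 0.76 in ND+EV and 0.88 in HFD, and SBDS, which readies that subunit for translation, at 0.63 in HFD. RRS1, another assembly factor, was at -0.40 in ND+EV. Genes of mTORC1, the S6 kinases and TOP control (16 of 20 tested) had medians of 0.021 in ND+EV against ND and 0.24 in HFD against ND. In this list RPTOR, EIF4EBP1 and LARP1 had no probe set with a single symbol. LARP4 was at 0.69 and RPS6KA3 at 0.62 in HFD, and RPS6KA5 at 0.77 and DEPTOR, an mTOR inhibitor, at 0.36 in ND+EV. Other TOP mRNAs and ribosome-associated genes (14 of 19 tested, EEF1A1, EEF1B2, EEF1G and PABPC1 being in the lists above too) had 13 higher in each of these 2 comparisons (0.44 and 0.51). Among them COX7C, a respiratory chain subunit whose mRNA has a TOP motif, was at 0.46 in both. Ribosome quality control genes (10 of 14 tested) had 9 higher in ND+EV against ND (0.15) and 8 in HFD against ND (0.34). The ribosome recycling factor ABCE1 was at 0.48 in ND+EV and 0.89 in HFD, and UFM1, a modifier of the large subunit, at 0.52 and 1.10. No gene of these 4 lists passed in any comparison with limma.

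**Figure D5:**
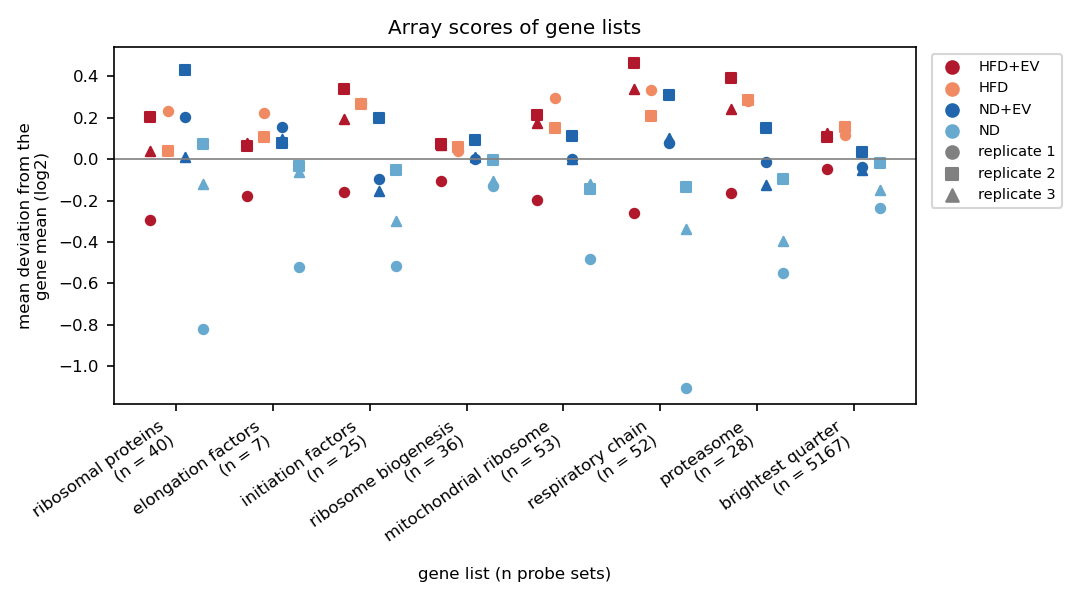
Mean deviation from the gene mean (log2) on each array for 8 sets of probe sets, coloured by group and shaped by replicate number. ND replicate 1 is the lowest array in all 8 sets, at -0.82 for ribosomal proteins, -1.10 for the respiratory chain and -0.24 for the bright set.

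The members were also set beside the mitochondrial ribosome (53 genes tested), nuclear-encoded respiratory chain (52) and proteasome (28). In ND+EV against ND the 40 cytosolic genes had a median of 0.46, and these sets had 0.29, 0.68 and 0.30. In HFD against ND the cytosolic median was 0.43, beside 0.51, 0.75 and 0.57. In HFD+EV against ND+EV, 5 of 40 cytosolic ribosomal protein genes were higher (median -0.25), beside 29 of 53 (0.031), 29 of 52 (0.017) and 20 of 28 (0.13). Of the lists above, 6 of 7 genes of the elongation list (-0.10) and 10 of 14 other TOP mRNAs and ribosome-associated genes (-0.039) were lower there. By contrast, 19 of 25 initiation factors (0.13) and 9 of 10 ribosome quality control genes (0.11) were higher. No test of a difference between gene lists was run.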

How the data were processed

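RNA (50 ng per array) from pig left ventricle was hybridised to a whole-transcript array, 11 arrays in 4 groups. The authors deposited 1 table of normalized log2 signals, made with Transcriptome Analysis Console per the submitters' processing notes. How background, summary and normalization were done is not stated in what was used here, and these steps could shift dim probe sets most. No counts exist, so the number of arrays limits the precision. Deposited values ran from 2.14 to 14.02, and array medians from 4.36 to 4.48.

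Symbols came from the platform annotation: of 27558 probe sets 13157 had 1 symbol, 523 several and 13878 none. Of the first, 12841 matched a current gene by ID, as did 51 of the 54 ribosomal protein probe sets. Another 9 probe sets with several symbols, one of them RPL or RPS, were not used. In all, 1239 probe sets shared all values with another, 8 of them ribosomal protein probe sets.

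Probe sets in the lowest 25% by mean signal were left out. A model of 4 group means was fitted to the remaining 20668 with limma 3.58.1 in R 4.3.3 (7 residual and 3.63 prior degrees of freedom), with 5 contrasts and Benjamini-Hochberg adjustment over all probe sets of a contrast. A call is an adjusted p under 0.05, and ± after a fold change is the SE. The script was tested on simulated data. The replicate number was not a term in this fit. Among 15 pairs of same-numbered arrays the correlations of deviations ran from -0.103 to 0.335 (median 0.078), and 5 exceeded 0.1. The highest was between HFD+EV replicate 1 and ND replicate 1. Among 30 pairs with different numbers the median was -0.047, and 5 exceeded 0.1. Members, gene lists and tests were chosen with earlier results of these data known. Named genes are, per contrast, the 3 with the highest and 2 with the lowest fold change, any called gene, the P stalk, RPL3, the paralogs, genes whose probe sets disagree, and up to 2 genes per other list by unadjusted p. RPS16, RPS10, RPL24, RPL10A, RPS3A, the other probe set of RPL36AL and the names of genes without overlap were added after their values were seen. Alternatives were other filters, normalizations, weights, a block and left-out arrays.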

Additional observations from a re-analysis of the deposited data

How the results depend on the processing

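Arrays were few and single arrays carried much of the pattern. In HFD minus ND the count of called members, 1 for the paralog RPL7L1, became 0 with no filter on low signal, with quantile or cyclic loess normalization, with trend and robust eBayes, with array weights, with these groups alone, without ND replicates 1 and 3, and without ND replicate 1 and HFD+EV replicate 1 (the last chosen after seeing the data, and giving differences of vesicle effects of 0.54 for RPL13A and 0.19 for RPS25). It became 2 with the replicate block, where RPS27L was the second (1.18, limma adjusted p = 0.0386). Leaving out 1 array gave 0 to 4, with 4 without ND replicate 2 and 2 without HFD+EV replicate 1. Calls over all probe sets there were 152, beside 938 with the replicate block and a range of 0 to 1356 over the alternatives. The block changed no other call of a named gene, and with it the medians were 0.46 (ND+EV minus ND), -0.17 (HFD+EV minus HFD), -0.64 (difference of vesicle effects), 0.44 (HFD minus ND) and -0.25 (HFD+EV minus ND+EV). The numbers are not shown to pair the samples. The other 4 comparisons had 0 called members under each alternative. The cause of these changes was not tested.

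A median was counted as moved at a shift of at least 0.31, the pooled within-group SD of the mean deviation of the 40 genes. The ND arrays, with -0.82 on ND replicate 1, enter this SD. The fall of HFD minus ND from 0.43 to 0.14 without that array was thus not counted. Medians moved in 3 cases: the difference of vesicle effects to -0.29 and HFD minus ND to 0.068 without ND replicates 1 and 3, and the difference of vesicle effects to -0.28 without ND replicate 1 and HFD+EV replicate 1. With 1 array left out the medians ran from 0.23 to 0.68 (ND+EV minus ND), -0.29 to -0.021 (HFD+EV minus HFD), -0.81 to -0.38 (difference of vesicle effects), 0.14 to 0.66 (HFD minus ND) and -0.37 to -0.090 (HFD+EV minus ND+EV).

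These directions turned. RPL3 in HFD minus ND was -0.21 with quantile and -0.25 with cyclic loess normalization and -0.14 without ND replicates 1 and 3 or without ND replicate 1 and HFD+EV replicate 1. In ND+EV minus ND it was -0.063 under both omissions. RPLP0 in ND+EV minus ND was -0.21 and -0.12, and RPL26L1 in HFD minus ND 0.11 and 0.075, under these 2 in turn. RPS25's difference of vesicle effects was -0.072 without ND replicates 1 and 3. The mean over probe sets gave -0.28 for the difference in RPL13A and -0.10 for RPS3 in HFD+EV minus ND+EV. With 1 array left out, ND+EV minus ND ran from -0.12 to 0.78 (RPLP0), -0.063 to 0.26 (RPL3) and -0.081 to 0.34 (RPL26L1), and HFD+EV minus HFD from -0.026 to 0.71 (RPL13A) and -0.055 to 0.30 (RPS29). The difference ran from -0.25 to 0.48 (RPL13A) and -0.087 to 0.15 (RPS25), and HFD minus ND from -0.35 to 0.075 (RPL26L1) and -0.14 to 0.16 (RPL3). Of the values of single genes under alternatives, 660 kept direction and side of the threshold, 17 lost and 2 gained a call, and 29 turned.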

Other observations

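FAU, whose product includes a small subunit protein but whose symbol falls outside the rule, had log2 signals of 6.46, 6.79 and 6.51 in HFD+EV and 6.77 and 6.59 in HFD. It had 6.75, 7.04 and 6.61 in ND+EV, against 6.06, 7.16 and 6.27 in ND, so ND replicate 1 was again the lowest array (log2 fold change 0.30 ± 0.25, SE; limma adjusted p = 0.739). The second probe set of RPL19, with fold changes unlike those of the first, is 1 of the 3 ribosomal protein probe sets whose gene ID matched no current gene.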
